A study of Mus musculus with 4 samples.

Results

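The transcripts described here are those of 47 genes that copy DNA and supply its building blocks, measured in cultured mouse T helper 17 (Th17) cells. They cover the licensing of replication origins, the helicase, the polymerases, the sliding clamp and its loader, single-strand binding proteins, the joining of Okazaki fragments, deoxynucleotide synthesis and the packing of new DNA. The members were chosen by gene symbol for their place in the pathway, with no threshold on their values, though with earlier results of these data known. All 47 were found among the 50600 genes in the deposited tables, and all had enough counts to be tested, as did 17337 genes in all.

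Th17 cells are CD4 T cells that secrete interleukin 17. The 4 libraries form a single group, biological replicates 1 to 4, of primary cells from the C57BL/6NJ mouse strain, with no treated arm and no other cell type to set them against. A culture protocol for CD4 T cell differentiation is linked in the labels, and a time of 72 hr stands in each file header. The 4 biosamples stand under a shared donor identifier and no label says that they came from different animals or cultures, so each p-value reflects the spread among these samples alone, which may be technical.

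DNA replication starts at origins, which the origin recognition complex (ORC) marks in G1 phase. CDC6 and CDT1 then load the MCM helicase there, and geminin blocks a repeat within the same cycle. In S phase CDC45 and GINS switch the helicase on, primase and polymerase alpha lay down primers, and polymerases delta and epsilon extend them while held by the PCNA clamp. Naive T cells rest outside the cycle, and activation through the T cell receptor sends them into rapid division. Many of these genes are controlled by E2F transcription factors, which RB family proteins hold back until late G1.

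Because E2F factors are known regulators of this pathway, promoter sequence is shown first for members with a letter match to an E2F element upstream of the start. RefSeq promoters of the build GRCm38.p6 were listed for 39 of the 47 members, and Rfc2, Gmnn, Gins1, Gins2, Gins4, Mcm4, Pole and Prim2 have no entry. The windows ran from 250 bases before to 50 bases after each start. The letters TTTGGCGC, TTTCCCGC, TTTCGCGC and TTTGCCGC were searched on both strands. At least 1 match was found in 15 of the 39 genes, or 38.5%, against 704 of 27025 genes with a listed promoter, or 2.60%. Counted by promoter the shares were 31.2% of 48 and 2.26% of 32851. Member promoters also held the letters CCAAT more often, in 56.2% against 37.4% of all promoters, and GGGCGG, in 72.9% against 35.7%. Their median GC content was 60.7%, against 52.7% over all promoters, and no test was made of any of these shares. The 250 bases upstream of the start are printed for 1 gene of each role that had a match there, the one with the highest level: Orc1 at chr4:108579204-108579453 (plus strand), Mcm5 at chr8:75109259-75109508 (plus strand), Gins3 at chr8:95633309-95633558 (plus strand), Rfc3 at chr5:151651209-151651458 (minus strand) and Uhrf1 at chr17:56304063-56304312 (plus strand). Each runs 5′ to 3′ on the gene's strand, and capitals mark the E2F letters.
Orc1: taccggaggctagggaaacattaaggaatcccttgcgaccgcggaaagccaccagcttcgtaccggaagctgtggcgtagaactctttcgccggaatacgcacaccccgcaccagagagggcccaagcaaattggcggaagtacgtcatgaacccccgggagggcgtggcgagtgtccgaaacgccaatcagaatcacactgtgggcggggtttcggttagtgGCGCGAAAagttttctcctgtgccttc
Mcm5: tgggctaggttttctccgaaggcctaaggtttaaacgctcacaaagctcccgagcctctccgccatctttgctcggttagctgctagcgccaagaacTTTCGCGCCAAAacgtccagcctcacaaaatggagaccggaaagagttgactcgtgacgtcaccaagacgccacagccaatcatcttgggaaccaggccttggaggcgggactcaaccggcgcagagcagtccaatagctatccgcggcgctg
Gins3: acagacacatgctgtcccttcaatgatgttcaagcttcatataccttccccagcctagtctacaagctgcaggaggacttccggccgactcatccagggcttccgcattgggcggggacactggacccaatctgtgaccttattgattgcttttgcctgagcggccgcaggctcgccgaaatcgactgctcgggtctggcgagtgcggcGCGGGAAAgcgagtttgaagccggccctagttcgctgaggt
Rfc3: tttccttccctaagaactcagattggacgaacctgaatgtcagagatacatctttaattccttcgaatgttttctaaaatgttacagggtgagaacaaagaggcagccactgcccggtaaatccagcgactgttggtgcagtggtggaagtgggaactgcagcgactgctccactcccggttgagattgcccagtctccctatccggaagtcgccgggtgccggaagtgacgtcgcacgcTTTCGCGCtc
Uhrf1: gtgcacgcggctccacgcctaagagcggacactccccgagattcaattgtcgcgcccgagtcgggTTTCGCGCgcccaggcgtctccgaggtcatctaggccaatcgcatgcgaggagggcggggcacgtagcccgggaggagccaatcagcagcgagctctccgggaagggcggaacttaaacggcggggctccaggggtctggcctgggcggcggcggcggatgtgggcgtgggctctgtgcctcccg
In Mcm5 the capitals hold a TTTCGCGC on the gene's strand and a TTTGGCGC on the other strand, which share bases. The match began 27 bases before the start in Orc1, 41 in Gins3 and 10 in Rfc3, and farther upstream in Mcm5 and Uhrf1, at 153 and 185 bases. Over the 15 genes there were 21 matches, 8 of TTTCCCGC, 7 of TTTCGCGC, 6 of TTTGGCGC and 0 of TTTGCCGC, and 14 of the 21 began within 100 bases upstream or 50 bases downstream of the start. Mcm3, Mcm5, Mcm6 and Mcm7 all had a match, and Mcm2 had none in its window. No member of the single-strand binding or deoxynucleotide groups with a listed promoter had one. A match is a run of letters and says nothing of whether a factor binds there.

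Total counts were 33123029 to 37746767 per library, and each member had between 385 and 17966 counts in each library. Levels are given in TPM, a scale with the same sum in every library in which counts are divided by gene length. The length is that of all annotated exons of a gene together, which can exceed that of the transcripts present. Orders and ratios between genes therefore depend on this length as well as on the counts. As a check of the labelled cell type, 7 of 7 T cell markers had 1 TPM or more, with a summed level of 3339 TPM in replicate 2 and 3195 to 3334 TPM in the other 3 libraries. The summed level of 6 B cell markers was 2.23 TPM in replicate 2 and 1.87 to 2.11 TPM in the others, and the myeloid marker Lyz2, the NK cell marker Ncr1 and the epithelial marker Krt8 had 0 counts. A mean of 1 TPM was reached by 1 of 6 B cell, 2 of 6 myeloid, 1 of 4 NK and CD8 and 2 of 6 epithelial and stromal markers. Their sums were 11.2 TPM in replicate 2 and 11.7 to 12.99 TPM in the others for myeloid, 31.6 and 41.8 to 48.0 TPM for NK and CD8, nearly all of it Cd8b1, and 23.04 and 19.01 to 21.2 TPM for epithelial and stromal markers. Replicate 2 stood apart from the others. Its counts differed from those of the other 3 with a chi-square of 48.8 to 54.1 per degree of freedom, against 4.64 to 7.05 between the others. The summed level of 7 Th17 markers was 1434 TPM in replicate 2 and 5456 to 6218 TPM in replicates 1, 3 and 4. Levels are therefore given over the 4 libraries and again over replicates 1, 3 and 4.

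All 47 members lay above 1 TPM (edgeR quasi-likelihood test, Benjamini-Hochberg adjusted), a call that 70.6% of the genes tested received, with 16.4% called below it. The same held without replicate 2. Their means over the 4 libraries ran from 23.4 TPM for Gins3 to 493 TPM for Rrm2, with a median of 89.0 TPM. All 47 were above the median of the tested genes, and 21 had 100 TPM or more, a level that 12.6% of tested genes reached. Together they held 0.545 ± 0.0251% of all transcripts (SD, n = 4), with 0.509% in replicate 2 and 0.552%, 0.565% and 0.556% in replicates 1, 3 and 4. In bulk RNA, fewer cycling cells and less of these transcripts per cell cannot be told apart.

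**Figure D1:**
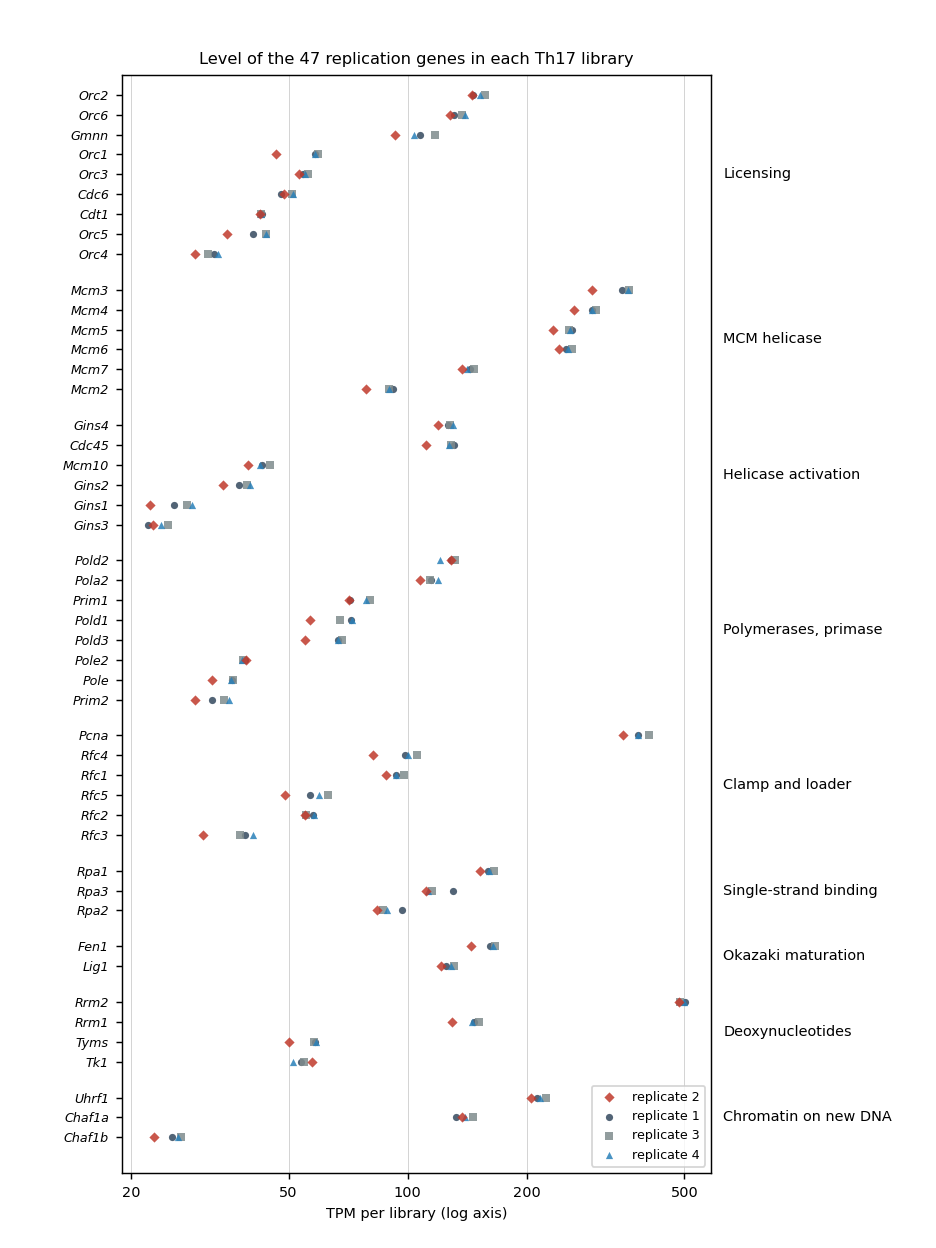
TPM of each of the 47 members (log axis) in the 4 Th17 libraries, grouped by role and ordered by mean level within a role. Points are single libraries. The levels span 23.4 to 493 TPM on average. Replicate 2 (red diamonds) is the lowest library for 41 of the 47 genes, and for 43.2% of all tested genes.

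Licensing genes summed to 664 ± 32.3 TPM (SD, n = 4, as for all means below). ORC subunit genes did not stand at a common level. Orc2 and Orc6 led with 150.2 ± 5.39 TPM and 134 ± 5.55 TPM, followed by Orc1 at 55.6 ± 6.08 TPM, Orc3 at 54.7 ± 1.22 TPM, Orc5 at 40.9 ± 4.21 TPM and Orc4 at 31.4 ± 1.84 TPM. Of neighbours in this order only Orc1 and Orc3 overlapped over the 4 libraries, and they did not overlap over replicates 1, 3 and 4, where Orc1 had 58.3 to 59.3 TPM and Orc3 54.5 to 55.98 TPM. In the 4 libraries Orc2 exceeded Orc4 by 4.79 ± 0.27 times. Of the loaders, Cdc6 had 49.7 ± 1.75 TPM and Cdt1 42.6 ± 0.157 TPM. Cdt1 had the lowest coefficient of variation of the members, 0.367%. With 1331 to 1525 counts per library, counting alone spreads values more than this, so it is no sign of steadier expression. Gmnn, which encodes geminin, the protein that binds and inhibits CDT1, stood at 105 ± 10.03 TPM, 2.47 ± 0.23 times the level of Cdt1.

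The 6 MCM genes encode a ring with equal numbers of each subunit, and together they made up the largest group, 1359 ± 77.8 TPM or 24.9% of the module's summed level. Mcm3 had 341 ± 32.9 TPM, Mcm4 286 ± 16.3 TPM, Mcm5 252 ± 12.4 TPM, Mcm6 251 ± 8.204 TPM, Mcm7 142 ± 4.28 TPM and Mcm2 87.4 ± 6.004 TPM. Mcm3 therefore stood 3.89 ± 0.16 times above Mcm2, and this ratio lay between 3.73 and 4.03 in each library. Mcm5 and Mcm6 did not differ beyond the spread between libraries, with or without replicate 2. Mcm3 was above Mcm4 in 4 of 4 libraries, and their ranges overlapped only through replicate 2, since over replicates 1, 3 and 4 Mcm3 had 347 to 362 TPM and Mcm4 291 to 299.6 TPM.

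Genes that activate the helicase were lower, 379.7 ± 20.7 TPM in sum. Cdc45, part of the active helicase, had 124 ± 8.86 TPM and Mcm10, which acts as the helicase is activated, 42.4 ± 2.23 TPM. The 4 GINS subunit genes were uneven. Gins4 had 126 ± 4.795 TPM, whereas Gins2, Gins1 and Gins3 had 37.6 ± 2.58 TPM, 26.05 ± 2.79 TPM and 23.4 ± 1.16 TPM. Gins4 exceeded Gins3 by 5.39 ± 0.24 times, and Gins1 and Gins3 overlapped over the 4 libraries but not over replicates 1, 3 and 4. The Gins2 value carries an uncertainty, since 67.3% of its exonic length lies opposite exons of Gse1, and only the strand of a read tells the genes apart.

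Among the polymerases, Pola2, the second subunit of polymerase alpha, had 114 ± 4.74 TPM, the catalytic primase gene Prim1 75.4 ± 4.68 TPM and the large primase subunit gene Prim2 32.7 ± 2.82 TPM. Pold1, which encodes the catalytic subunit of the lagging-strand polymerase delta, had 67.1 ± 7.41 TPM, and its partners Pold2 and Pold3 had 127 ± 4.77 TPM and 64.2 ± 6.198 TPM. The leading-strand polymerase epsilon was lower, with Pole, its catalytic subunit gene, at 35.04 ± 1.997 TPM and Pole2 at 38.6 ± 0.354 TPM.

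The clamp gene Pcna was the second most abundant member at 381 ± 23.8 TPM. The loader that opens the clamp, replication factor C, has 5 subunit genes. Its large subunit gene Rfc1 had 93.05 ± 3.95 TPM, and the small subunit genes Rfc4, Rfc5, Rfc2 and Rfc3 had 96.4 ± 10.3 TPM, 57.1 ± 5.91 TPM, 56.6 ± 1.53 TPM and 36.8 ± 4.42 TPM. Rfc4 overlapped with Rfc1 over the 4 libraries but not over replicates 1, 3 and 4, and Rfc5 overlapped with Rfc2 in both. The single-strand binding protein RPA is a trimer, and its genes stood at 159 ± 5.23 TPM for Rpa1, 117 ± 8.65 TPM for Rpa3 and 88.98 ± 5.51 TPM for Rpa2, with no overlap between them. Fen1, the flap nuclease that trims Okazaki fragments, had 159 ± 9.77 TPM, and Lig1, the ligase that seals them, 126 ± 4.18 TPM. Of the length of Fen1, 78.8% lies opposite the antisense gene Gm10143, which had 40 counts over the libraries.

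The ribonucleotide reductase genes were the most unequal pair among the enzymes of deoxynucleotide supply. Rrm2, its S phase-regulated small subunit gene and the most abundant member (ENSMUSG00000020649.11, chr12:24708241-24714146, plus strand of mm10), had 493 ± 8.46 TPM, while the large subunit gene Rrm1 had 143 ± 9.66 TPM. Rrm2 exceeded Rrm1 by 3.45 ± 0.22 times. This ratio rests on annotated lengths of 2771 bases for Rrm2 and 11012 bases for Rrm1. In counts over the libraries Rrm1 was the higher, with 67814 against 58743. Thymidylate synthase (Tyms), which makes dTMP anew, and thymidine kinase (Tk1), which salvages it, had means of 56.3 ± 4.09 TPM and 54.3 ± 2.43 TPM, with overlapping ranges. Over replicates 1, 3 and 4 the ranges were apart, with Tyms the higher. Of the genes acting on chromatin, Uhrf1, which brings maintenance DNA methylation to new DNA, had 214 ± 7.499 TPM. The chromatin assembly factor genes Chaf1a and Chaf1b had 139 ± 5.74 TPM and 25.3 ± 1.72 TPM, a ratio of 5.50 ± 0.34.

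Over replicates 1, 3 and 4 alone the members' means ran from 23.6 to 495 TPM with a median of 90.8 TPM, and their share of transcripts was 0.558 ± 0.00669% (SD, n = 3, as for the other values in this paragraph). No mean moved by more than 5.77%, while the SD over 4 libraries was larger than that over 3 by a median of 1.73 times. The sums by role were 679 ± 17.8 TPM for licensing, 1398 ± 14.7 TPM for MCM, 389.9 ± 3.97 TPM for helicase activation, 566 ± 5.09 TPM for polymerases and primase and 743 ± 21.5 TPM for the clamp and its loader. They were 372 ± 13.002 TPM for RPA, 292 ± 5.19 TPM for Okazaki fragment genes, 755 ± 4.62 TPM for deoxynucleotide synthesis and 383 ± 12.996 TPM for chromatin genes. MCM again had the highest of these sums and the Okazaki fragment genes the lowest. Among single genes, Mcm3 had 357 ± 8.14 TPM, Mcm2 90.4 ± 1.01 TPM, Orc1 58.7 ± 0.554 TPM, Orc5 42.9 ± 1.89 TPM, Pold1 70.6 ± 2.797 TPM and Pold3 67.3 ± 0.791 TPM. Rfc3, Rfc4 and Rfc5 had 38.96 ± 1.48 TPM, 101 ± 3.92 TPM and 59.7 ± 3.06 TPM, and Rrm1, Tyms and Tk1 had 148 ± 2.77 TPM, 58.3 ± 0.443 TPM and 53.3 ± 1.65 TPM. Each of these 12 means except that of Tk1 was above the mean over the 4 libraries. This follows from the choice of genes, which are the members called lower or, for Tk1, higher in replicate 2. The ratios within complexes were 4.71 ± 0.27 for Orc2 to Orc4, 3.95 ± 0.13 for Mcm3 to Mcm2, 5.44 ± 0.26 for Gins4 to Gins3, 3.35 ± 0.11 for Rrm2 to Rrm1, 5.34 ± 0.12 for Chaf1a to Chaf1b and 2.56 ± 0.17 for Gmnn to Cdt1.

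The members varied little between libraries. Their coefficient of variation had a median of 5.70% over 4 libraries, and 2.67% over replicates 1, 3 and 4. Over the 6617 tested genes at or above the level of the lowest member, the medians were 5.79% and 3.22%. When each of replicates 1, 3 and 4 was compared with the other 3 libraries by edgeR's quasi-likelihood test, 0 of 47 members passed an adjusted p of 0.05, as did 0% of all genes. DESeq2 called 0 members in these comparisons as well, and 0 members reached an unadjusted p under 0.05, against 166, 257 and 128 of all genes in edgeR. The median log2 fold change of the members was −0.0040 in replicate 1, 0.05 in replicate 3 and 0.01 in replicate 4. In replicate 3, 37 of the 47 members had a value above 0, against 8437 of all 17337 tested genes. The absence of calls does not show that the levels were equal. In each of these comparisons replicate 2 was among the other 3 libraries and added to their spread, so calls were hard to reach. The standard error of Orc1, for example, was 0.14 in the comparison of replicate 1 and 0.07 in that of replicate 2.

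In replicate 2, the library with the low Th17 markers, some members were lower, by small factors. They were 2 of the 3 polymerase delta genes among the members, 3 of 5 clamp loader genes, 2 of 6 ORC genes, 2 of 6 MCM genes, Rrm1 and Tyms. Tk1 was higher. Of the 47 members 11 were lower and 1 was higher, and 35 had no call (edgeR quasi-likelihood test, replicate 2 against replicates 1, 3 and 4, adjusted over all genes). Of all genes tested 22.5% were called in either direction. The members lower made up 23.4% of the 47, against 10.9% of all genes tested and 15.2% of those at or above the level of the lowest member. The member higher was 2.13% of the 47, against 11.7% of all genes. The median log2 fold change was −0.07 over the members, −0.01 over all tested genes and 0.02 over those at or above the lowest member's level. A value under 0 was found for 36 of 47 members (36 to 41 across the alternative settings). It was found for 8823 of all 17337 tested genes and for 3028 of the 6617 at or above the lowest member's level. The changes were modest, with folds of 0.815 to 0.911 among the 11 lower members. The median size of a called change was 0.23 on the log2 scale among members and 0.39 among all called genes. With a lone library on one side, the test assumes that it varies as the other 3 do. The Th17 markers moved in the same library, 5 of 7 of them lower, and their part in these values was not tested.

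**Figure D2:**
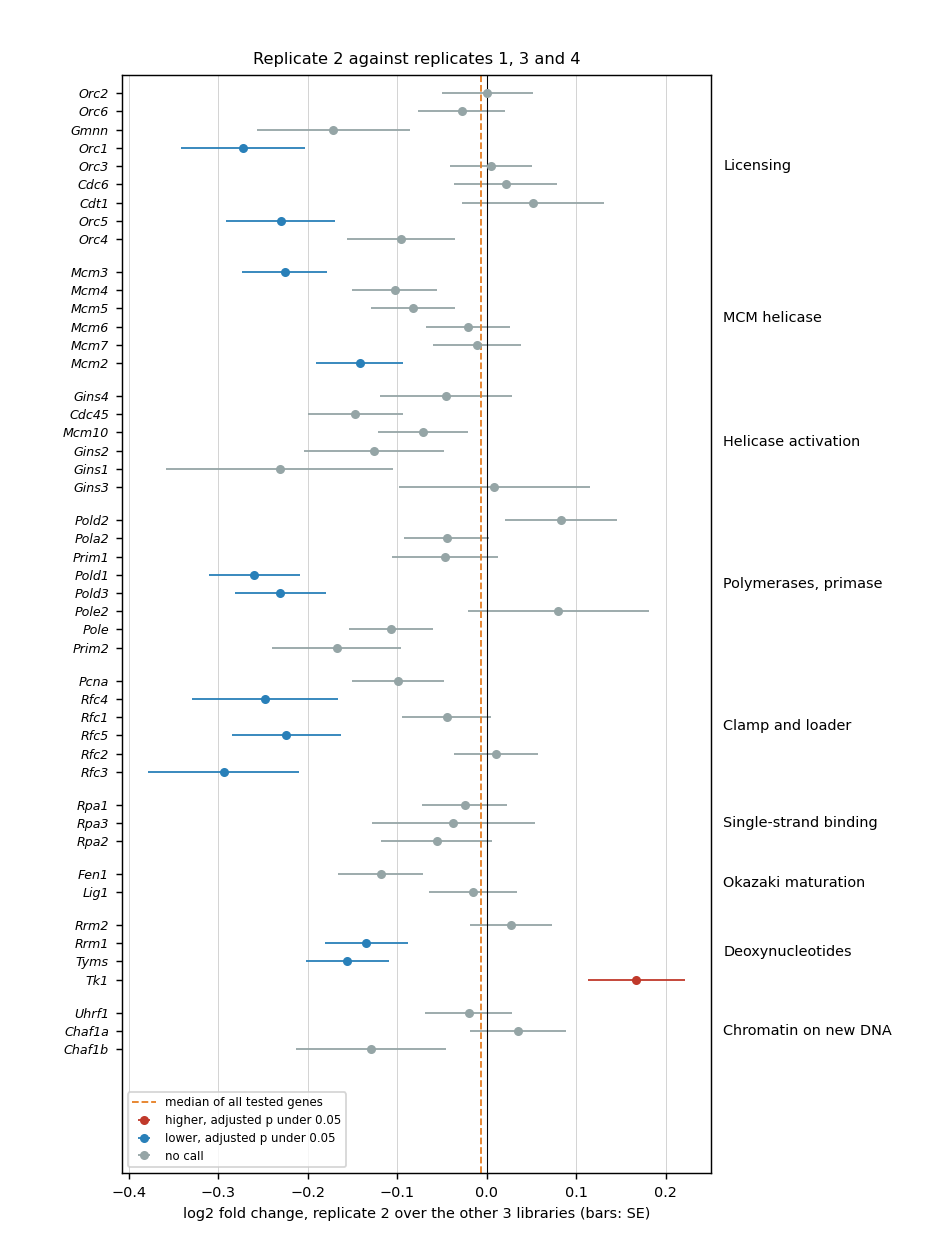
Log2 fold change of each member in replicate 2 over the other 3 libraries (points) with its standard error (bars), grouped by role. The 11 genes called lower (blue) lie between −0.29 and −0.13, Tk1 (red) is called higher at 0.17, and the dashed line marks the median of all tested genes at −0.01.

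In the clamp loader 3 of 5 subunit genes were lower. Rfc3 (ENSMUSG00000033970.15, chr5:151642756-151651242, minus strand of mm10) had 30.5 TPM in replicate 2, against 38.7, 37.6 and 40.5 TPM in replicates 1, 3 and 4 (log2 fold change −0.29 ± 0.08, adjusted p = 0.0140). Rfc4 had 81.8 TPM in replicate 2, against 98.3, 106 and 99.9 TPM in replicates 1, 3 and 4 (log2 fold change −0.25 ± 0.08, adjusted p = 0.0319). Rfc5 had 49.03 TPM in replicate 2, against 56.7, 62.8 and 59.7 TPM in replicates 1, 3 and 4 (log2 fold change −0.22 ± 0.06, adjusted p = 0.00994). In all 3 genes replicate 2 lay below each of the other libraries. Rfc2 had 55.1 TPM in replicate 2, against 57.7, 55.5 and 58.1 TPM in replicates 1, 3 and 4, and Rfc1 88.00 TPM in replicate 2, against 93.2, 97.7 and 93.3 TPM in replicates 1, 3 and 4, and neither was called, with 95% intervals of the log2 fold change of −0.09 to 0.11 and −0.15 to 0.06. The call of Rfc4 was lost with DESeq2 and without replicate 3. Pcna, the clamp itself, had 349.7 TPM in replicate 2, against 382, 408 and 382 TPM in replicates 1, 3 and 4 and no call (log2 fold change −0.10 ± 0.05, adjusted p = 0.189).

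Of the 3 polymerase delta genes among the members 2 were lower, and the catalytic subunit gene had the lowest adjusted p of the members. Pold4, a polymerase delta gene outside the member list, was also lower and is described below. Pold1 (ENSMUSG00000038644.14, chr7:44532746-44548849, minus strand of mm10) had 56.5 TPM in replicate 2, against 72.03, 67.4 and 72.5 TPM in replicates 1, 3 and 4 (log2 fold change −0.26 ± 0.05, adjusted p = 0.000694). Pold3 had 54.9 TPM in replicate 2, against 66.8, 68.2 and 66.8 TPM in replicates 1, 3 and 4 (log2 fold change −0.23 ± 0.05, adjusted p = 0.00199). Replicate 2 was clear of the other libraries in both genes. Pold2, by contrast, had 129 TPM in replicate 2, against 129, 131 and 120.5 TPM in replicates 1, 3 and 4, so that replicate 2 lay within the others, and had no call (log2 fold change 0.08 ± 0.06, adjusted p = 0.398). None of the members that encode subunits of polymerase epsilon, polymerase alpha and primase was called. Pole had 32.1 TPM in replicate 2, against 36.04, 36.2 and 35.8 TPM in replicates 1, 3 and 4, below each of the others (log2 fold change −0.11 ± 0.05, adjusted p = 0.112).

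In the licensing group Orc1 and Orc5 were lower. Orc1 (ENSMUSG00000028587.18, chr4:108579423-108614833, plus strand of mm10), the ATPase subunit that varies through the cycle in other mammalian cells, had 46.5 TPM in replicate 2, against 58.3, 59.3 and 58.4 TPM in replicates 1, 3 and 4 (log2 fold change −0.27 ± 0.07, adjusted p = 0.00614). Orc5 had 35.03 TPM in replicate 2, against 40.7, 43.97 and 43.9 TPM in replicates 1, 3 and 4 (log2 fold change −0.23 ± 0.06, adjusted p = 0.00818). The other 4 ORC genes, Cdc6, Cdt1 and Gmnn had no call. Their log2 fold changes were 0.00 ± 0.05 for Orc2, 0.00 ± 0.05 for Orc3, −0.10 ± 0.06 for Orc4, −0.03 ± 0.05 for Orc6, 0.02 ± 0.06 for Cdc6, 0.05 ± 0.08 for Cdt1 and −0.17 ± 0.09 for Gmnn. The geminin gene had 93.1 TPM in replicate 2, against 107, 117 and 104 TPM in replicates 1, 3 and 4, and a 95% interval of the log2 fold change of −0.35 to 0.01.

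Of the MCM genes, Mcm3 and Mcm2 were lower, the most and the least abundant. Mcm3 (ENSMUSG00000041859.10, chr1:20802968-20820312, minus strand of mm10) had 292 TPM in replicate 2, against 347, 362 and 361 TPM in replicates 1, 3 and 4 (log2 fold change −0.23 ± 0.05, adjusted p = 0.00128). Mcm2 had 78.5 TPM in replicate 2, against 91.6, 89.8 and 89.8 TPM in replicates 1, 3 and 4 (log2 fold change −0.14 ± 0.05, adjusted p = 0.0383), a call lost without replicate 1. Mcm4, Mcm5, Mcm6 and Mcm7 had log2 fold changes of −0.10 ± 0.05, −0.08 ± 0.05, −0.02 ± 0.05 and −0.01 ± 0.05 and no call. Of the helicase activators 0 of 6 were called. Cdc45 came nearest, with 111 TPM in replicate 2, against 131, 128 and 127 TPM in replicates 1, 3 and 4 (log2 fold change −0.15 ± 0.05, adjusted p = 0.0524), and was called under 5 of 10 alternative settings. Gins1 had the widest interval of the module, −0.50 to 0.03, around a log2 fold change of −0.23 ± 0.13.

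The deoxynucleotide genes split. Rrm1 had 129 TPM in replicate 2, against 147, 151 and 146 TPM in replicates 1, 3 and 4 (log2 fold change −0.13 ± 0.05, adjusted p = 0.0409), whereas Rrm2 had 484 TPM in replicate 2, against 500.3, 487 and 499 TPM in replicates 1, 3 and 4 and no call (log2 fold change 0.03 ± 0.05, adjusted p = 0.745). Tyms had 50.2 TPM in replicate 2, against 58.3, 57.9 and 58.7 TPM in replicates 1, 3 and 4 (log2 fold change −0.16 ± 0.05, adjusted p = 0.0175), and Tk1 (ENSMUSG00000025574.13, chr11:117815526-117826092, minus strand of mm10) had 57.3 TPM in replicate 2, against 53.8, 54.6 and 51.4 TPM in replicates 1, 3 and 4 (log2 fold change 0.17 ± 0.05, adjusted p = 0.0293). Tk1 was the sole member called higher, and its call was lost with library totals as the scale, with DESeq2 and without replicate 4. Rrm1 lost its call when edgeR's prior was not made robust, and Tyms lost it with DESeq2. RPA, Okazaki fragment and chromatin genes gave 0 calls among 8. Fen1 had 145 TPM in replicate 2, against 162, 166 and 164 TPM in replicates 1, 3 and 4 (log2 fold change −0.12 ± 0.05, adjusted p = 0.0778), and the 3 RPA genes had log2 fold changes of −0.06 to −0.02.

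Of the 35 members with no call, 28 had a 95% interval within 0.25 of 0 on the log2 scale, and all 35 within 0.5. A change of more than 2-fold was outside the interval of each member. In TPM, replicate 2 lay below all other libraries for 41 members, above them for Tk1 and Pole2, and between them for Chaf1a, Pold2, Cdc6 and Gins3. Over all tested genes 43.2% lay below and 28.2% above. TPM itself ran lower in replicate 2, with a median log2 difference of −0.05 over genes with counts in every library and −0.13 over the members.

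Ratios of members within a library do not depend on how libraries are scaled. The pairs below were picked after the values were seen, so they describe these libraries and were not tested; with 1 library against 3 an exact permutation test cannot give a p under 0.25. The ratio of Pold2 to Pold1 was 2.28 in replicate 2, against 1.79, 1.95 and 1.66 in replicates 1, 3 and 4. That of Rfc2 to Rfc3 was 1.81 in replicate 2, against 1.49, 1.47 and 1.43 in replicates 1, 3 and 4. Orc3 stood to Orc1 at 1.14 in replicate 2, against 0.94, 0.94 and 0.94 in replicates 1, 3 and 4. In these pairs replicate 2 was above each of the other libraries. Tk1 stood to Tyms at 1.14 in replicate 2, against 0.92, 0.94 and 0.88 in replicates 1, 3 and 4, so that the order of the salvage and the synthesis gene was turned round in that library. The ratio of Rrm2 to Rrm1 was 3.74 in replicate 2, against 3.40, 3.22 and 3.43 in replicates 1, 3 and 4. The ratio of Gmnn to Cdt1 was 2.20 in replicate 2, against 2.50, 2.75 and 2.43 in replicates 1, 3 and 4, the lowest of the 4 in replicate 2, while that of Gins4 to Gins3, 5.23 in replicate 2, against 5.70, 5.18 and 5.45 in replicates 1, 3 and 4, lay among the others.

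**Figure D3:**
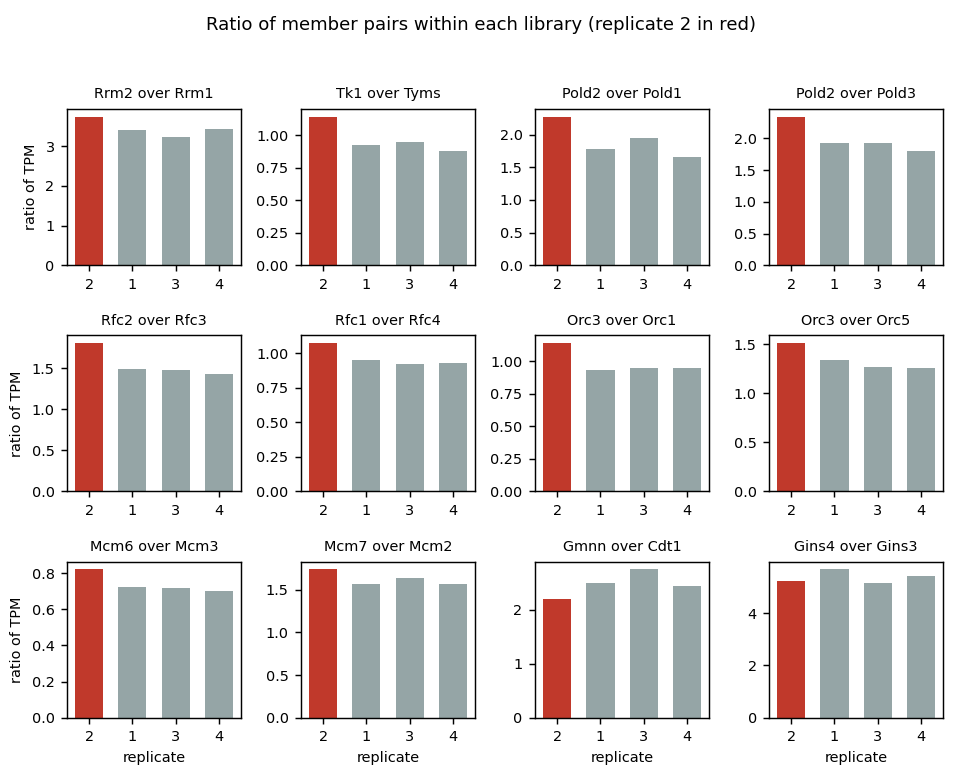
Ratio of TPM for 12 pairs of members within each library, with replicate 2 (red) left of replicates 1, 3 and 4 (grey). Replicate 2 is the highest bar in 10 pairs, among them Tk1 over Tyms at 1.14, the lowest for Gmnn over Cdt1 at 2.20, and lies among the others for Gins4 over Gins3 at 5.23.

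Genes called in replicate 2 were found with and without a promoter match. Of the 15 genes with E2F letters 5 were lower and 0 higher, and of the 24 with a listed promoter and no match 6 were lower and 1 was higher. Their median log2 fold changes were −0.02 and −0.06, and no test was made. Among those printed above, Orc1 and Rfc3 were lower, and Mcm5, Gins3 and Uhrf1 had no call.

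Other genes of replication and the cell cycle were set beside the members from lists chosen by function. Of 35 other replisome genes, 6 were lower in replicate 2 (17.1%, against 10.9% of all genes) and 1 was higher (2.86%, against 11.7%). Of tested genes at or above the level of the lowest member, 15.2% were lower and 19.6% higher. The other 28 genes of the list had no call, and its median log2 fold change was −0.09. In replicate 3 against the other 3 libraries, replicate 2 among them, the median of the list was 0.08. Pold4, the small accessory subunit of polymerase delta, had 197 TPM in replicate 2, against 243, 240.0 and 245 TPM in replicates 1, 3 and 4 (log2 fold change −0.24 ± 0.06, adjusted p = 0.00979). Rnaseh2b, a subunit of the nuclease that removes ribonucleotides from DNA, was lower, with a log2 fold change of −0.35 ± 0.08 (adjusted p = 0.00189). Chtf8, part of an alternative clamp loader, was higher by 0.17 ± 0.05 on the log2 scale (adjusted p = 0.0123). The histone chaperone gene Ssrp1 was the most abundant of the list at 500.3 ± 32.3 TPM and had no call, nor had Top2a, which encodes a topoisomerase that untangles copied DNA, at 269.8 ± 10.2 TPM.

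Of 35 genes of nucleotide synthesis beyond the 4 members, 6 were higher (17.1%, against 11.7% of all genes) and 5 were lower (14.3%, against 10.9%). Both shares were below those of tested genes at or above the level of the lowest member, 19.6% higher and 15.2% lower. The other 24 had no call, and the list's median log2 fold change was 0.06. Mthfd1l, an enzyme of mitochondrial folate metabolism, had 90.2 TPM in replicate 2, against 133, 133 and 136 TPM in replicates 1, 3 and 4 (log2 fold change −0.51 ± 0.05, adjusted p = 1.09e-07). Shmt2, which feeds serine carbon into the same pathway, had 268 TPM in replicate 2, against 352, 338 and 349 TPM in replicates 1, 3 and 4 (log2 fold change −0.31 ± 0.05, adjusted p = 5.82e-05). Both lay well below the other libraries. Impdh1, an enzyme of guanine nucleotide synthesis, was higher at 143 TPM in replicate 2, against 118, 115 and 121 TPM in replicates 1, 3 and 4 (log2 fold change 0.34 ± 0.05, adjusted p = 1.23e-05), and Ctps2, a CTP synthase gene, was also higher (log2 fold change 0.26 ± 0.09, adjusted p = 0.0355). The purine synthesis genes Gart and Paics were among the most abundant of the list, at 370.1 ± 8.61 TPM and 354 ± 8.65 TPM, and had no call.

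Among 19 genes of the E2F, RB and DREAM regulators, 2 were higher (10.5%, against 11.7% of all genes) and 3 were lower (15.8%, against 10.9%). Tested genes at or above the level of the lowest member were higher in 19.6% and lower in 15.2%. The other 14 regulators had no call, and the list's median log2 fold change was −0.05. Tfdp1, the partner subunit of E2F factors, had 311 TPM in replicate 2, against 271, 285 and 269 TPM in replicates 1, 3 and 4 (log2 fold change 0.24 ± 0.05, adjusted p = 0.00113), and Rb1 was higher as well (log2 fold change 0.23 ± 0.06, adjusted p = 0.00722). Lin9, of the DREAM core, and Rbl1, an RB relative, were lower, with log2 fold changes of −0.29 ± 0.10 and −0.25 ± 0.07 (adjusted p = 0.0360 and 0.0181). E2f4, an E2F of the repressive kind, was the most abundant at 301 ± 14.00 TPM and Rbbp4 had 126 ± 3.28 TPM, both with no call. Of 26 checkpoint and licensing control genes 4 were higher (15.4%, against 11.7% of all genes) and 6 were lower (23.1%, against 10.9%). Over tested genes at or above the lowest member's level, 19.6% were higher and 15.2% lower. The other 16 genes of the checkpoint list had no call, and its median log2 fold change was −0.06. Cdkn1a, which encodes the CDK inhibitor p21, stood at 1364 TPM in replicate 2, against 1237, 1128 and 1154 TPM in replicates 1, 3 and 4 (log2 fold change 0.28 ± 0.05, adjusted p = 0.000244). Cdkn1b, which encodes its relative p27, had 31.1 TPM in replicate 2, against 44.7, 41.02 and 44.1 TPM in replicates 1, 3 and 4 (log2 fold change −0.41 ± 0.08, adjusted p = 0.000364). The inhibitor genes moved in opposite directions in replicate 2. Rad9a, of the checkpoint clamp, and Skp1a, of the SCF ubiquitin ligase, were higher, with log2 fold changes of 0.38 ± 0.06 and 0.36 ± 0.05 (adjusted p = 6.89e-05 and 6.56e-06). The checkpoint kinase gene Atr was lower (log2 fold change −0.29 ± 0.07, adjusted p = 0.00676), and Ddb1, an adaptor of the ligase that destroys CDT1, had 777 ± 14.7 TPM and no call.

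Mitosis genes had the highest share of lower calls among these lists, 9 of 24 (37.5%), with 0 higher, 15 with no call and a median of −0.11, although no test compared the lists. Over all genes 10.9% were lower and 11.7% higher, and over those at or above the lowest member's level 15.2% and 19.6%. A shift was not limited to replicate 2, where 22 of the 24 had a log2 fold change under 0. In replicate 3 against the other 3 libraries, replicate 2 among them, 22 of the 24 were above 0, with a median of 0.12. Ccnb2, a mitotic cyclin gene, had 108 TPM in replicate 2, against 133, 148 and 134 TPM in replicates 1, 3 and 4 (log2 fold change −0.31 ± 0.08, adjusted p = 0.00498). Bub1, of the spindle checkpoint, had 51.8 TPM in replicate 2, against 65.3, 68.6 and 65.5 TPM in replicates 1, 3 and 4 (log2 fold change −0.30 ± 0.06, adjusted p = 0.000424). Plk1, a mitotic kinase gene, was lower (log2 fold change −0.17 ± 0.05, adjusted p = 0.0103), and Cdc20, which activates the anaphase ligase, had 249 ± 10.5 TPM and no call (log2 fold change −0.06 ± 0.05, adjusted p = 0.419).

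**Figure D4:**
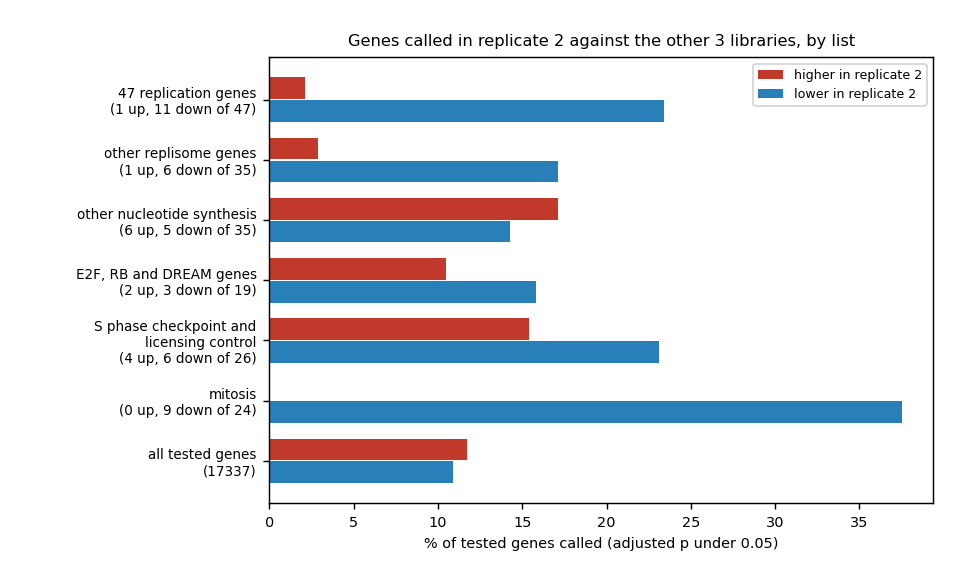
Share of tested genes called higher (red) and lower (blue) in replicate 2 over the other 3 libraries, for the 47 members, 5 related lists and all 17337 tested genes. The members have 23.4% lower and 2.13% higher, mitosis genes 37.5% lower and 0% higher, and all tested genes 10.9% lower and 11.7% higher.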

How the data were processed

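RNA was sequenced from 4 libraries of mouse Th17 cells. The labels give the assay as total RNA-seq, but the linked library protocol has poly(A)+ RNA in its title. The authors' counts were made by featureCounts 1.4.6-p4 from GENCODE M13 exons, with paired ends and strand option 2 (reverse), per the file headers; the build is mm10 per the labels. The deposited values are raw counts, not normalized and not pooled. The other deposited column is each gene's summed exon length. The aligner's version is not given in the sources used here.

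Symbols came from GENCODE M21 by identifier, with 50376 of 50600 matched. TPM was computed from counts and length. Genes with at least 10 summed counts were tested with edgeR 4.0.16 in R 4.3.3 (quasi-likelihood, TMM, robust prior), with Benjamini-Hochberg adjustment over all tested genes and a threshold of 0.05. The level was tested against 1 TPM, and each replicate against the other 3. A standard error is the size of the log2 change divided by the root of its F statistic. DESeq2 1.42.0, other scalings (library totals, RLE, upper quartile), count filters (none, or 100) and leaving out each library were alternatives. The scripts' tests were tested on simulated data. Members and lists were chosen with earlier results of these data known. All 47 members are named; of the other lists, the 3 with the highest mean TPM and, among genes called in replicate 2, the 2 largest rises and 2 largest falls. Of the genes this rule names, 1 is not reported here. Marker lists are given by their sums.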

Additional observations from a re-analysis of the deposited data

Results flagged for a closer look

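In 5 of the 47 members 1 library lay farther from the others than Dixon's 95% limit for 4 samples allows, and in each it was replicate 2, at the low end. Mcm2 had 78.5 TPM in replicate 2, against 91.6, 89.8 and 89.8 TPM in replicates 1, 3 and 4. Orc1 had 46.5 TPM in replicate 2, against 58.3, 59.3 and 58.4 TPM in replicates 1, 3 and 4. Pold3 had 54.9 TPM in replicate 2, against 66.8, 68.2 and 66.8 TPM in replicates 1, 3 and 4. In these genes the other 3 libraries lay close together, and all were called lower in replicate 2. The flags and the calls rest on the same counts. Orc1 had 2009, 2168 and 2275 counts in replicates 1, 3 and 4. Counting alone spreads values more than its levels in those libraries were spread, so their closeness is no sign of steadier expression. Pole had 32.1 TPM in replicate 2, against 36.04, 36.2 and 35.8 TPM in replicates 1, 3 and 4, and Tyms had 50.2 TPM in replicate 2, against 58.3, 57.9 and 58.7 TPM in replicates 1, 3 and 4. Tyms was called lower, and Pole was not (adjusted p = 0.112, edgeR quasi-likelihood test). Chance flags about 1 in 20 groups of 4, but replicate 2 stands apart over the whole table. The 5 members are 10.6% of the 47, and 10.5% of all tested genes had a library beyond the limit. Replicate 2 was the low library beyond it in 10.6% of members, 3.96% of all tested genes and 6.60% of those at or above the level of the lowest member, and these shares were not compared by a test.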

How the results depend on the processing

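The count of lower members in replicate 2 ranged from 9 with DESeq2 to 14 with library totals, against 11, and was 10 to 11 when replicate 1, 3 or 4 was left out. Of the 11, the lower calls shared with these fits numbered 9 and 11. The count of higher members, 1, fell to 0 with library totals and with DESeq2, and was 0 to 1 when a library was left out, where it was Tk1 that was lost without replicate 4. Calls were lost for Mcm2 without replicate 1, for Rfc4 with DESeq2 and without replicate 3, for Rrm1 without a robust prior (an alternative chosen after seeing the data), and for Tyms with DESeq2. Calls were gained for Cdc45 in 5 settings, for Fen1 and Pole with library totals and for Prim2 without replicate 1. The direction of each of the 12 called members was kept in all 10 alternatives, while Cdc6, Gins3, Mcm7, Orc2, Orc3, Rfc2 and Rpa3, 7 members with no call, changed sign in at least 1 setting. Without correction for length, the members held 0.629 ± 0.0224% of counts, against 0.545% of transcripts. In replicates 1, 3 and 4 against the others, 0 members were called in every setting run; without replicate 2, edgeR called 68, 108 and 9 of all genes. All 47 members were also above 1 TPM in each alternative, and above 5 TPM. No paired analysis was possible because the 4 libraries form a single group. Each member had 385 counts or more in each library. Standard errors in the replicate 2 comparison ran from 0.05 for Rrm2, with 58743 counts over the libraries, to 0.13 for Gins1, with 1698.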

Other observations

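Neighbours were counted where a tested gene on the other strand starts within 1000 bases upstream and runs away from the member. Genes whose starts overlap head to head were left out. Such a neighbour was found for 13 of the 47 members, or 27.7%, against 11.9% of 13686 tested protein-coding genes. The neighbours that are protein-coding were Abhd12 (Gins1), Prkdc (Mcm4), Prpf38a (Orc1), Rars2 (Orc3), Pxmp2 (Pole), Smyd4 (Rpa1) and Umad1 (Rpa3), and 6 others were non-coding. The starts of Orc3 and Rars2, which encodes a mitochondrial arginyl-tRNA synthetase, lie 13 bases apart, and the genes had means of 54.7 and 60.8 TPM. Mcm4 had 286 TPM and Prkdc, the catalytic kinase of end joining repair, 16.9 TPM, with starts 466 bases apart. In replicate 2, 0 of the 13 neighbours were called by edgeR, against 22.5% of all tested genes. The 6 non-coding neighbours had standard errors of 0.30 to 1.07 on the log2 scale, too wide for changes of the size seen in the members, and the 7 protein-coding neighbours 0.05 to 0.18. Of these, Prpf38a had a log2 fold change of −0.09 ± 0.05, beside −0.27 ± 0.07 for Orc1; whether the members of a pair differ was not tested.

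Processed copies of members were counted at a low level. For Pcna-ps2, replicate 2 held 33 counts, and the other libraries 62 to 73. Tyms-ps had 0 counts there, against 1 to 3 elsewhere, and Pcna-ps1 had 0 in all libraries. The microRNA genes Mir25 and Mir93 share 84 and 88 bases with exons of Mcm7 on the same strand, and had 0 counts. With this overlap, the counts do not tell whether the microRNAs were present.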
